A study of Drosophila melanogaster with 11 samples.

Results

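The genes described here are 10 cytoskeleton genes of Drosophila, picked by symbol out of the 16509 gene symbols in the deposited exon tables. All 10 were found and all 10 passed the filter on low values. They are the cytoplasmic actin genes Act5C and Act42A, the profilin gene chic, the cofilin gene tsr, the non-muscle myosin II heavy chain gene zip and its regulatory light chain gene sqh. The moesin gene Moe, the filamin gene cher, and the tubulin genes alphaTub84B and betaTub56D complete the group. The choice used measured values, because it rested in part on the hMeRIP peak called in Act5C, so the peaks in these genes are given as a description without a test.

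Actin monomers assemble into filaments that give a cell its cortex and its protrusions. Profilin feeds monomers to growing ends and cofilin severs old filaments. Filamin crosslinks filaments, moesin ties them to the plasma membrane, and myosin II, built of heavy chains with regulatory and essential light chains, slides them past each other. Alpha- and beta-tubulin pair into the subunit of microtubules, the tracks of kinesin and dynein motors. S2 cells are a hemocyte-like line of embryonic origin, and the spreading of hemocytes is known to rest on this machinery.

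Every sample was of S2 cells grown in serum-free medium. Transcript levels came from polyA RNA-seq of 2 libraries labelled dTet Ctrl (controls) and 2 labelled dTet KD (knockdown), dTet being the fly gene for the Tet dioxygenase, which oxidises methylcytosine to hydroxymethylcytosine. RNA hydroxymethylcytosine was mapped by hMeRIP-seq, the sequencing of total RNA pulled down with an antibody to the modified base, in 1 sample of cells edited by CRISPR at yellow, a body colour gene that serves as the editing control, and in 1 sample edited at dTet. The deposited names of the control libraries carry GFP, without saying how it was used. The reagent used in the control and knockdown cells and the clonality of the edited cells are not given in the sources used here. Nor is it said whether replicates were separate cultures, so the spread behind each p-value may be technical.

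The unit of level is called signal: reads per 40-bp bin of exon times 1 factor per library. It is thus a level per length. The value of a gene averages over all its listed exons, whether or not they were read. In control 1, chic had a gene value of 47.9 but 118 in 350 bp of its main exon. The order and ratios of genes below are those of gene values, and need not hold for the exons that were read. The worth of 1 read was 0.340 and 0.390 in the Ctrl pair against 0.372 and 0.476 in the KD pair, so control 1 was the deepest library. Control 1 stood apart in coverage along genes. In 4229 tested genes with 3 or more groups of overlapping exons, the stronger outer exon exceeded the weaker by a median log2 ratio (signal + 1) of 1.73 in control 1, against 1.21 in control 2 and 1.28 and 1.19 in the KD pair. The dTet gene itself (listed as CG43444) had 6.93 and 8.01 signal in the Ctrl pair against 4.88 and 6.60 in the KD pair, a log2 change of -0.34 with a standard error of 0.21 that did not pass (limma, adjusted p = 0.9995) and that was -0.15 without knockdown 1 and -0.52 without knockdown 2. Of 10 hemocyte markers 9 were tested, 2 higher and 7 lower with a median log2 change of -0.12 and 0 passing. Over all 6050 genes tested 2738 were higher and 3312 lower. The mean control signal of the markers ran from 0.206 (NimC1, not tested) to 77.6 (the collagen IV gene Cg25C). Pxn had 2.42 and 2.46 signal in the Ctrl pair against 0.904 and 1.29 in the KD pair. He had 4.36 and 6.66 against 8.52 and 7.71, and vkg had 71.0 and 65.3 against 56.2 and 58.8. The marker list summed to 267 and 278 signal in the Ctrl pair against 238 and 263 in the KD pair.

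The first question was how high the gene value of each transcript was. In bulk RNA, fewer cells and less RNA per cell cannot be told apart. Act5C was the highest of the group, at 95.6 and 87.6 signal in the Ctrl pair against 99.8 and 107 in the KD pair. It ranked 23 among all genes by mean control signal. Its 4 values all lay above the highest value of any other gene in the group. The second actin, Act42A, stood at 64.8 and 54.9 signal in the Ctrl pair against 52.6 and 73.9 in the KD pair, so its knockdown libraries lay on either side of both controls. By gene value, Act5C was 1.45 to 1.90 times as high as Act42A in the 4 libraries. Their coding sequences are known to be close to identical, and how the authors placed reads that match several genes is not stated, so the split between them is uncertain.

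The alpha-tubulin gene alphaTub84B had 72.0 and 68.2 signal in the Ctrl pair against 62.9 and 73.3 in the KD pair. Its partner in the tubulin dimer, betaTub56D, had 51.9 and 42.4 in the Ctrl pair against 43.4 and 51.6 in the KD pair. In each library the alpha gene was the higher, by 1.39 to 1.61 times, and both genes had overlapping groups. Profilin (chic) followed at 47.9 and 42.2 signal in the Ctrl pair against 40.4 and 48.2 in the KD pair. Cofilin (tsr) had 36.2 signal in each control library and 31.8 and 39.3 in the KD pair. Of the exon bins of tsr, 40% lie in 1 exon that overlaps an exon of IntS1, and the extent of the overlap was not measured. The profilin to cofilin ratio of gene values was 1.17 to 1.32 over the 4 libraries.

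The membrane linker Moe had 26.2 and 24.1 signal in the Ctrl pair against 23.0 and 28.3 in the KD pair. The light chain sqh had 18.1 and 16.0 against 15.0 and 14.2, with both knockdown libraries below both controls. The heavy chain zip had 8.70 and 8.78 against 10.4 and 10.8, with both knockdown libraries above. Filamin (cher) was the lowest of the group, at 5.53 and 7.82 signal in the Ctrl pair against 7.84 and 10.5 in the KD pair. Knockdown 1 of cher exceeded control 2 by less than the gap between the controls.

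In the order of mean control signal, alphaTub84B and Act42A overlapped over the 4 libraries, as did betaTub56D and chic, and zip and cher; every other neighbouring pair had separate ranges. Even the lowest gene, cher, was above most of the transcriptome, at the 80.3 percentile of the 6086 genes detected in the controls, and Act5C stood at the 99.6 percentile. Together the 10 genes took 1.12% and 1.07% of all signal in the Ctrl pair against 1.09% and 1.26% in the KD pair. Act5C alone took 0.303% and 0.285% in the Ctrl pair against 0.323% and 0.344% in the KD pair.

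**Figure D1:**
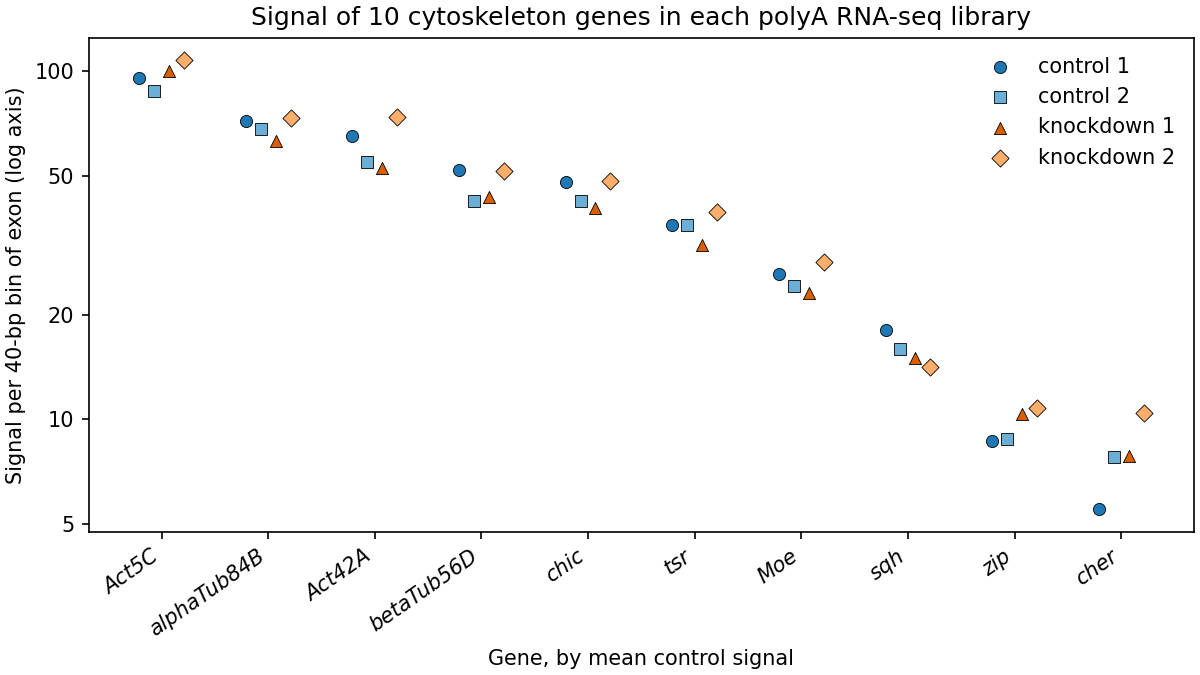
Signal per 40-bp bin of exon (vertical log axis) of the 10 cytoskeleton genes, ordered by mean control signal, with 1 point per polyA RNA-seq library. The genes run from Act5C, near 100, to cher, between 5.53 and 10.5, and for 6 of the 10 the control and knockdown points overlap.

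The same families hold genes for other tissues, and the muscle genes among them were near 0. The muscle actin genes Act57B, Act79B, Act87E and Act88F had mean control signals of 0.0911, 0.0166, 0.0581 and 0. All 16 muscle markers, these actins included, fell below the filter, and together they summed to 0.732 and 0.431 signal in the Ctrl pair against 0.569 and 0.558 in the KD pair. The muscle myosin heavy chain gene Mhc was listed at 0 in all 4 libraries. Of 7 neuron and glia markers 2 were tested (elav and moody, both higher, median log2 change 0.16, neither passing), and of 6 germline and ovary markers 0 were tested. Of the other tubulins, betaTub60D had 23.2 and 22.7 signal in the Ctrl pair against 25.4 and 27.3 in the KD pair. The alpha-tubulin gene alphaTub84D, whose protein is nearly the same as that of alphaTub84B, had 7.19 and 4.76 against 5.17 and 6.99. As the placing of reads that match several actin or tubulin genes is not stated, the split within each family is uncertain here too. The testis gene betaTub85D and the alpha-tubulin gene alphaTub85E were listed at 0 in all 4 libraries, and the maternal gene alphaTub67C did not exceed 0.372. The gamma-tubulin gene of somatic cells, gammaTub23C, had 2.82 and 2.99 signal in the Ctrl pair against 4.49 and 3.93 in the KD pair.

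The next comparison asked whether any of the 10 transcripts differs between the KD and Ctrl pairs. None of the 10 passed at an adjusted p of 0.05 (limma), nor did any of the 6050 genes tested (0%), while 245 (4.05%) had an unadjusted p under 0.05, none of them in the group. Of the 10, 6 had a higher and 4 a lower mean log2 level in the KD pair, where 2738 of all genes tested were higher and 3312 lower. The median log2 change was 0.02, against -0.03 over all genes tested. The smallest two-sided p that an exact permutation test of 2 against 2 libraries can give is 0.333, so no such test was run on single genes.

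The myosin and crosslinker genes lay farthest from 0. Filamin (cher) had 6.68 ± 1.62 signal in the Ctrl pair against 9.15 ± 1.86 in the KD pair (SD, n = 2 each). Its log2 change on the scale of signal + 1 was 0.41 ± 0.23 (SE), which did not pass (limma, adjusted p = 0.9995). The heavy chain gene zip had 8.74 ± 0.0566 and 10.6 ± 0.328 signal (SD, n = 2 each), a log2 change of 0.25 ± 0.18 (SE), which did not pass either (limma, adjusted p = 0.9995). The light chain gene sqh had 17.0 ± 1.51 and 14.6 ± 0.603 signal (SD, n = 2 each), a log2 change of -0.21 ± 0.18 (SE), which did not pass either (limma, adjusted p = 0.9995). The light chain to heavy chain ratio was therefore 2.08 and 1.82 in the Ctrl pair against 1.45 and 1.31 in the KD pair. These ratios do not overlap between the groups, which follows from zip lying wholly above and sqh wholly below the controls. The pair was 1 of 4 looked at, and the difference was not tested.

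Act5C had 91.6 ± 5.61 signal in the Ctrl pair against 104 ± 5.34 in the KD pair (SD, n = 2 each), a log2 change of 0.18 with a 95% interval of -0.18 to 0.53. Act42A had a log2 change of 0.06 with an interval of -0.40 to 0.53. The actin regulators chic and tsr had -0.03 (-0.42 to 0.37) and -0.04 (-0.44 to 0.37), and Moe had 0.02 (-0.39 to 0.44). The tubulins stood at -0.04 (-0.42 to 0.33) for alphaTub84B and 0.01 (-0.40 to 0.43) for betaTub56D. These intervals leave room for changes of either sign, so the data do not show that the levels were equal.

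In 3 of the 10 genes (Act5C, zip and cher) both knockdown libraries lay above both controls, a pattern found in 13.2% of all genes tested. In 1 gene (sqh) both lay below, found in 17.4%. Which library is left out moved the values: cher had 0.19 without control 1, 0.22 without knockdown 2 and 0.62 without control 2, Act5C had 0.11 without control 2, and sqh had -0.12 without control 1.

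**Figure D2:**
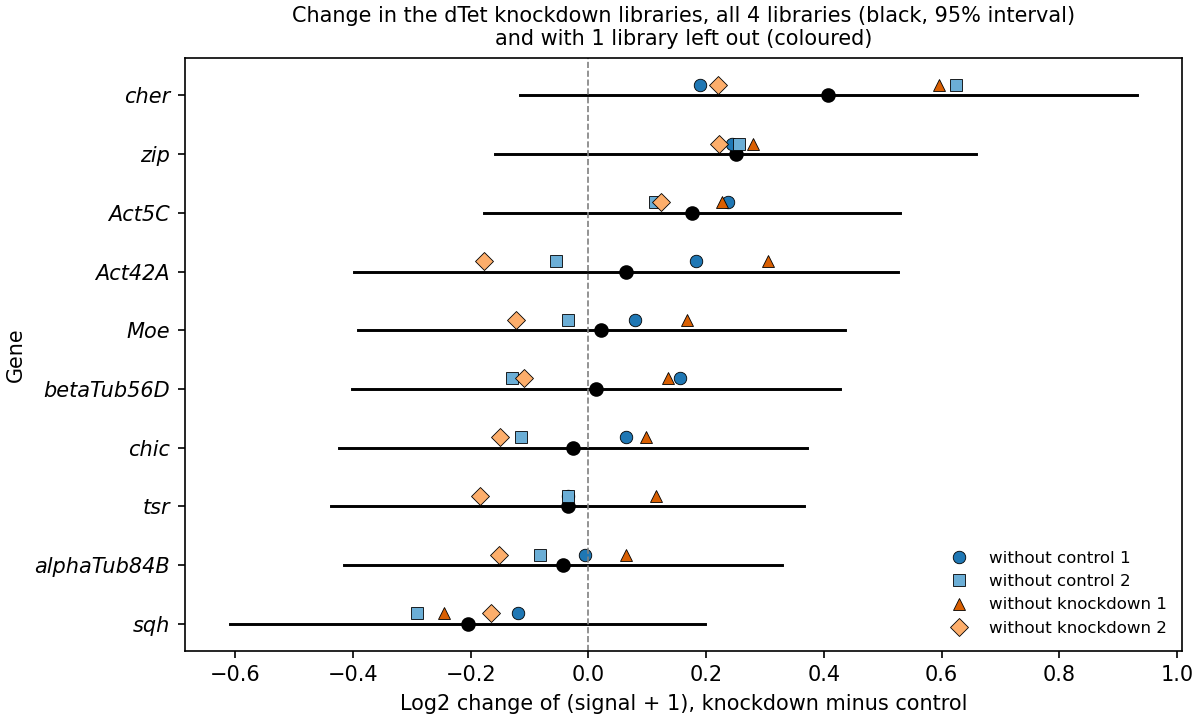
Log2 change of signal + 1, knockdown minus control, of each gene (black points, 95% limma interval) and the same value with 1 library left out (coloured symbols). All 10 intervals include 0, and the coloured symbols of chic, tsr, Act42A, Moe and both tubulin genes fall on either side of 0 while those of cher, zip, Act5C and sqh stay on one side. In the latter genes the groups do not overlap, so leaving out 1 library cannot change the sign.

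The genes were then read exon by exon, with overlapping exons of a gene treated as 1 cluster. The 10 genes have 79 clusters, of which 61 passed the filter. Of these 61, 0 passed at an adjusted p of 0.05, as did 0 (0%) of the 23023 clusters tested in all genes (limma). Of the 61, 47 had a higher and 14 a lower value in the KD pair, where 51.9% of all clusters were higher. The split was 40 to 21 without control 1, where 48.7% of all clusters were higher, 45 to 16 without control 2, 51 to 10 without knockdown 1 and 37 to 24 without knockdown 2. Clusters of a gene share their molecules, so this count is a description. An unadjusted p under 0.05 was found for 7 of the 61, against 3.96% of all clusters, and 6 of these 7 were in cher. With 1 library left out this count ran from 3 (without control 1, and without knockdown 2) to 17 (without control 2).

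Filamin had 23 clusters from 12917254 to 12951110 on 3R (coordinates of the dm3 build throughout), of which 16 were tested, 15 higher and 1 lower. The outermost cluster at 12917254 to 12917945 had the highest signal per bin, at 26.4 and 22.1 in the Ctrl pair against 18.6 and 20.4 in the KD pair. It was the lower one, with a log2 change of -0.29, and it overlaps an exon of cal1, so its reads may belong to either gene. With exons shared with other genes left out, the change of cher was 0.59.

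The other tested clusters of cher had higher values in the KD pair. Cluster 11, at 12930178 to 12930630, had 4.02 and 8.46 signal in the Ctrl pair against 12.1 and 16.0 in the KD pair. Cluster 22, at 12948119 to 12948403, had 0.255 and 4.88 in the Ctrl pair against 3.21 and 11.4 in the KD pair. In 13 of the 16 tested clusters control 1 was the lowest library, where this held for 31.8% of all clusters. Without control 1 the clusters of cher split 13 to 3. An unadjusted p under 0.05 was found for 2 of the 16 without control 1, 10 without control 2, 6 without knockdown 1 and 1 without knockdown 2, so the count moved with each of 3 libraries. Both knockdown libraries exceeded both controls in 9 of the 16 tested clusters of cher, against 16.6% of all clusters.

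The myosin heavy chain gene zip, at 20878092 to 20899487 on 2R, showed a like division on a smaller scale. Its outermost cluster, 20878092 to 20878794, had 20.2 and 20.3 signal in the Ctrl pair against 22.9 and 16.9 in the KD pair, so the groups overlapped. Its longest cluster, 20881929 to 20884668, had 5.87 and 6.71 against 8.24 and 10.6, a log2 change of 0.51 (limma, adjusted p = 0.999). Of 13 tested clusters 11 were higher and 2 lower. Without control 1 the split was 7 to 6. The signal dropped along the gene to between 0 and 1.30 at cluster 8 and was between 3.23 and 10.6 at cluster 14.

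**Figure D3:**
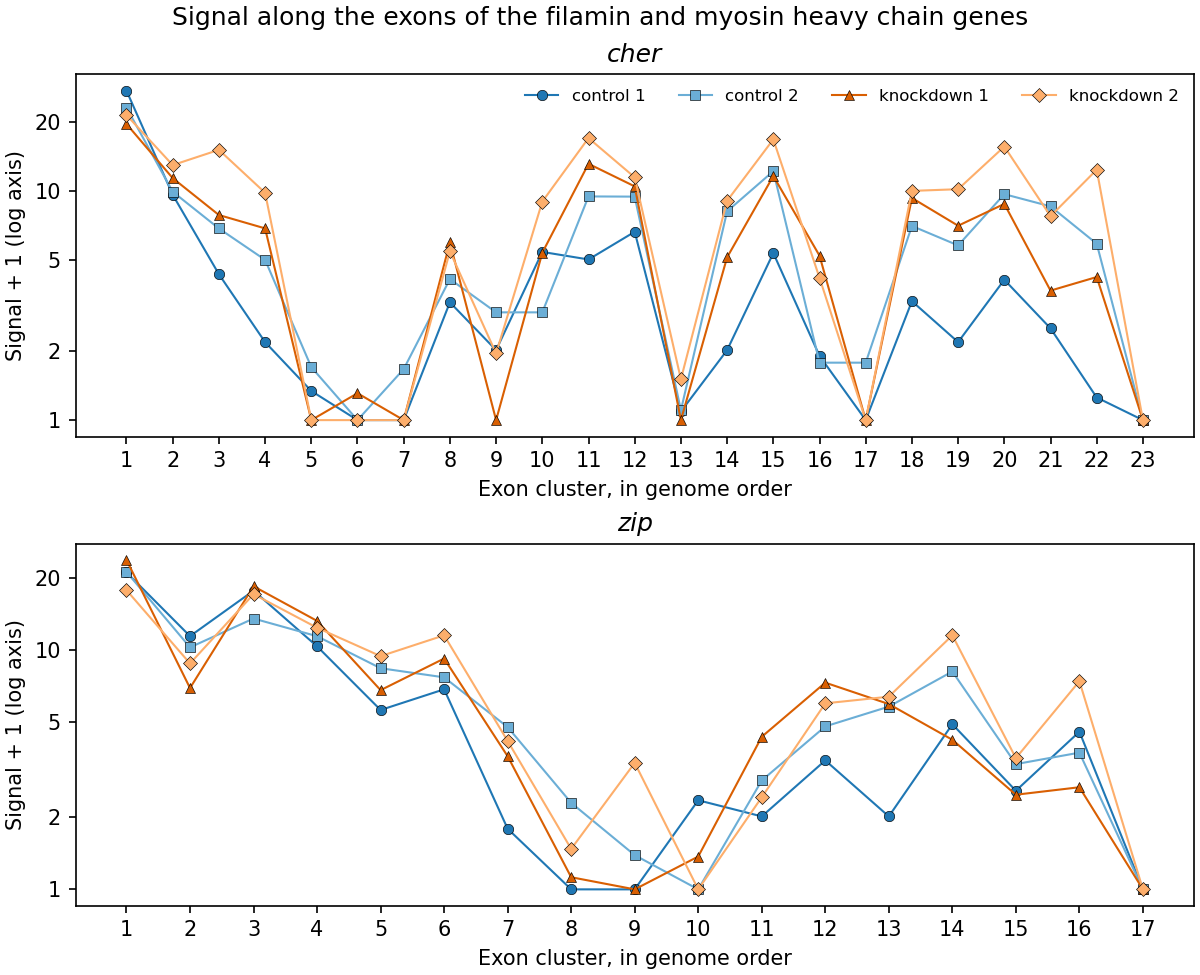
Signal + 1 (vertical log axis) in each exon cluster of cher (23 clusters, top) and zip (17 clusters, bottom), numbered in genome order, with 1 line per library. In cher the control 1 line is the highest at cluster 1 and the lowest over most clusters from 11 onward, while the lines of zip cross repeatedly.

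In the light chain gene sqh, 1 of 3 tested clusters was lower and 2 were higher in the KD pair. The cluster at 6117093 to 6117543 on X had 36.8 and 26.9 signal in the Ctrl pair against 21.1 and 21.3 in the KD pair, a log2 change of -0.55. The next cluster, 6117617 to 6118189, had 18.8 and 19.7 against 22.0 and 20.1, a log2 change of 0.12. Moe had 12 tested clusters, 9 higher and 3 lower. The farthest below 0 was its cluster at 8775292 to 8775664 on X, with 3.16 and 3.08 signal in the Ctrl pair against 0.744 and 1.24 in the KD pair (log2 change -1.06, limma, adjusted p = 0.999).

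The small outer exons of the actin and tubulin genes were far weaker than their main exons. The first exon of Act5C, 5794893 to 5795045 on X, had 8.58 signal in control 1, 18.6 in control 2 and 21.9 and 21.4 in the KD pair. The second, 5796014 to 5796128, had 2.61 and 4.69 in the Ctrl pair against 2.48 and 3.49 in the KD pair. They are known as alternative leaders, and the first was the stronger in every library. The log2 ratio of signal + 1 between the main and the first exon was 3.46 in control 1, 2.29 in control 2 and 2.26 and 2.39 in the KD pair, so control 1 stood apart in Act5C too. In alphaTub84B the exon at 2912320 to 2912465 on 3R had 3.40 and 4.39 against 5.86 and 8.10, beside 78.7 and 74.4 against 68.5 and 79.7 in the exon at 2912955 to 2914560. In betaTub56D the exon at 15338937 to 15339104 on 2R had 7.07 and 7.96 against 10.6 and 10.4, beside 68.0 and 55.3 against 56.4 and 67.4 in the exon at 15334823 to 15336250. Act42A had 2.83 and 5.21 against 3.85 and 4.61 at 1903081 to 1903193 on 2R, beside 69.7 and 58.8 against 56.5 and 79.4 at 1901414 to 1902926. None of these clusters passed (limma, adjusted p = 0.999 for each). The log2 ratio between the outer clusters was also highest in control 1 in sqh, Moe, cher and betaTub56D. In tsr and zip it was highest in knockdown 1. In chic it was lowest in control 1, at 5.17 against 6.05 in control 2 and 5.96 and 5.71 in the KD pair.

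The main exons of Act5C and chic are listed with 5 alternative ends each, and the signal between successive ends shows where the reads fell. In Act5C the exon starts at 5796722. Its shortest form, to 5798205, had 167 and 154 signal in the Ctrl pair against 178 and 188 in the KD pair. The stretch from there to the next end at 5798496 had 105 and 85.1 against 83.6 and 112. Its signal per bin was thus 63.0% and 55.3% of that of the shortest form in the Ctrl pair against 46.9% and 59.7% in the KD pair. The stretch to 5798820 had 5.56 and 5.95 in the Ctrl pair against 3.49 and 3.99 in the KD pair, and both knockdown values lay below both controls. That pattern was found in 15.2% of all exon clusters tested, and its share among such stretches was not computed. The stretch has 8 bins, next to one with 83.6 to 112 per bin, and stretches are exact to about 1 bin. Its signal and the difference between the groups therefore cannot be told from reads in the edge bin.

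Beyond the end at 5798820 there was almost nothing. The stretch to 5799259 had 0.185 signal in control 1 and was at 0 in the other libraries, and the last 172 bp were at 0 in all 4. The gene value of Act5C averages over these empty bases, so its RNA-bearing part stood higher than the gene value says. Stretches are differences between nested exons and are exact to about 1 bin.

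In chic the nested exons share their end at 5973673 on 2L. The innermost 350 bp, from 5973323, had 118 and 102 signal in the Ctrl pair against 101 and 117 in the KD pair. The signal stayed between 77.2 and 132 in each library out to 5972899. In the outermost 785 bp, down to 5972114, it was 28.5 and 24.2 in the Ctrl pair against 21.8 and 22.2 in the KD pair. The signal per bin of this last stretch was 24.1% and 23.6% of the innermost one in the Ctrl pair against 21.5% and 19.0% in the KD pair. The long form of the profilin exon was therefore read in every library at a lower signal per bin. Both knockdown percentages lay below both control percentages, a difference that was not tested. Knockdown values below both controls were found in 15.2% of all exon clusters tested, and how often such percentages do so was not computed. In Moe, the outer 611 bp of the exon from 8767044 to 8768143 on X had 62.3 and 49.2 against 49.3 and 59.9 signal, beside 76.8 and 66.0 against 58.6 and 68.1 in the inner 488 bp.

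**Figure D4:**
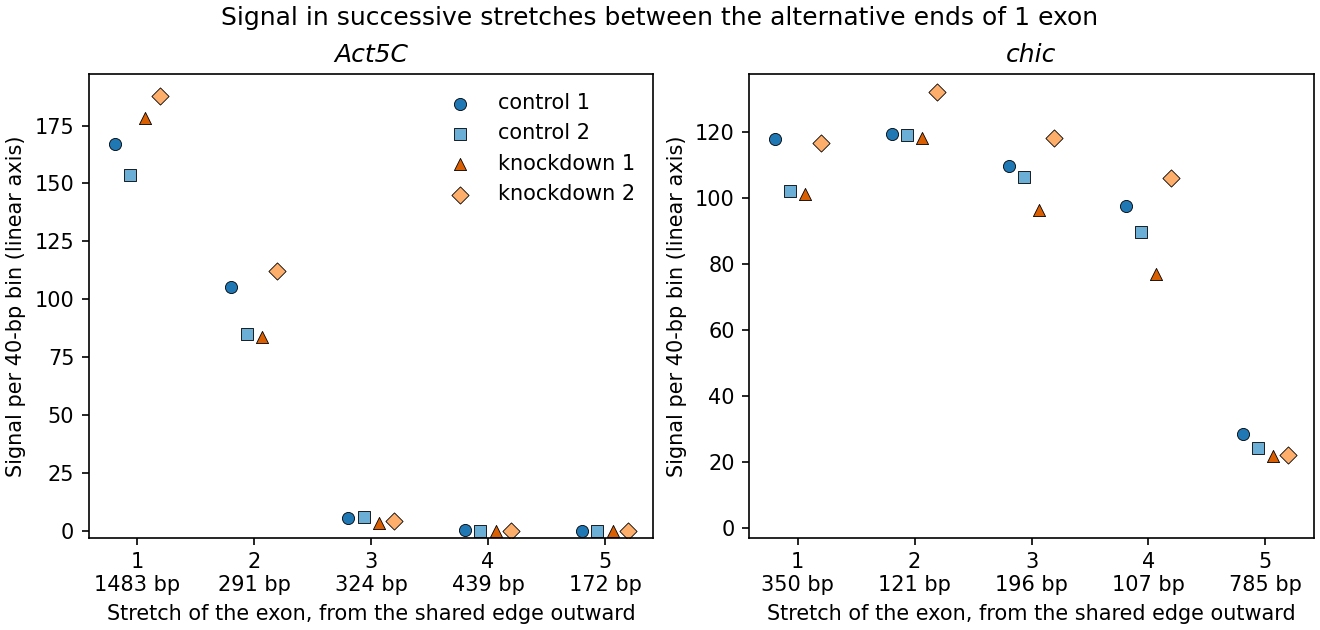
Signal per 40-bp bin (vertical linear axis) in successive stretches between the alternative ends of the main exon of Act5C (left) and chic (right), with 1 point per library and the length of each stretch under its number. Act5C drops from over 83 in stretch 2 to under 6 in stretch 3, while chic keeps 21.8 to 28.5 in its outermost stretch.

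The hMeRIP lists were read for where hydroxymethylcytosine was called in these transcripts in each line. With 1 sample per line no test of the genotype was possible, and the lists give no height or score. Yellow-list peaks touched exons of 4 of the 10 genes (Act5C, chic, zip and Moe), against 5.59% of all 6086 detected genes. Peaks of the dTet list touched exons of 3 (zip, Moe and alphaTub84B), against 7.74%. Among the 1175 detected genes with a control signal within the range of the 10, the shares were 12.9% and 17.8%. The group was chosen with such a peak known, so nothing is read from these counts. No gene had more than 1 peak in a list, and none of the peaks lay wholly in an intron.

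The Act5C peak of the yellow list ran from 5797747 to 5798522 on X, a width of 776 bp, all of it in the main exon. It began 1024 bp into that exon. It covered 459 bp of the shortest form and reached 26 bp past the end at 5798496, less than the 40-bp bin to which the signal is resolved. No dTet-list peak met it, and the nearest was 24351 bp away. Of the 479 yellow-list peaks on the chromosome arms, whose median width was 544 bp, 78.1% were narrower.

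The profilin gene chic gave the second peak found in the yellow list alone, at 5972572 to 5973260 on 2L (689 bp). It also lay wholly in the exon with alternative ends. Of its bases, 361 were in the form that starts at 5972899 and the rest in the weaker outermost stretch. The nearest dTet-list peak was 17074 bp away.

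The myosin and moesin genes had peaks in both lists. Of the 6086 detected genes, 340 had an exonic peak in the yellow list and 283 (4.65%) had one in both lists. In zip the yellow-list peak, 20879413 to 20879779 on 2R (367 bp), was narrow, with 9.60% of arm peaks narrower. It lay entirely inside the dTet-list peak at 20879181 to 20880894 (1714 bp), and both touched clusters 2 and 3 of 17. In Moe the yellow-list peak, 8767709 to 8769080 on X (1372 bp), was also wholly inside the dTet-list peak at 8767365 to 8769451 (2087 bp). It touched 3 clusters and the dTet-list peak 4, and 76.0% and 82.0% of their lengths were exonic. In both lists the peak of Moe was wider than most, with 96.9% and 96.8% of arm peaks narrower. Peaks on the arms were wider in the dTet list in general, with a median of 987 bp over 591 peaks.

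The tubulin gene alphaTub84B had a peak in the dTet list alone, at 2913050 to 2914613 on 3R (1564 bp). It covered 1511 bp of the main exon and ran 53 bp past its listed end. The nearest yellow-list peak was 95619 bp away. The remaining genes, Act42A, tsr, sqh, cher and betaTub56D, had no peak in either list. A call in one list alone does not show that the lines differ, as the threshold is not stated and each line has 1 sample.

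Within the group, the levels of genes with and without a peak overlapped, and a relation of peaks to level was not tested. Genes with a peak in either list ran from 8.74 (zip) to 91.6 (Act5C) mean control signal, and genes without one from 6.68 (cher) to 59.8 (Act42A). The 2 longest genes, cher with 9.84 kb of exon and zip with 7.40 kb, were on opposite sides. The knockdown change of the 4 genes with a yellow-list peak was 0.18 (Act5C), -0.03 (chic), 0.25 (zip) and 0.02 (Moe), and none passed (limma, adjusted p = 0.9995 for each).

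**Figure D5:**
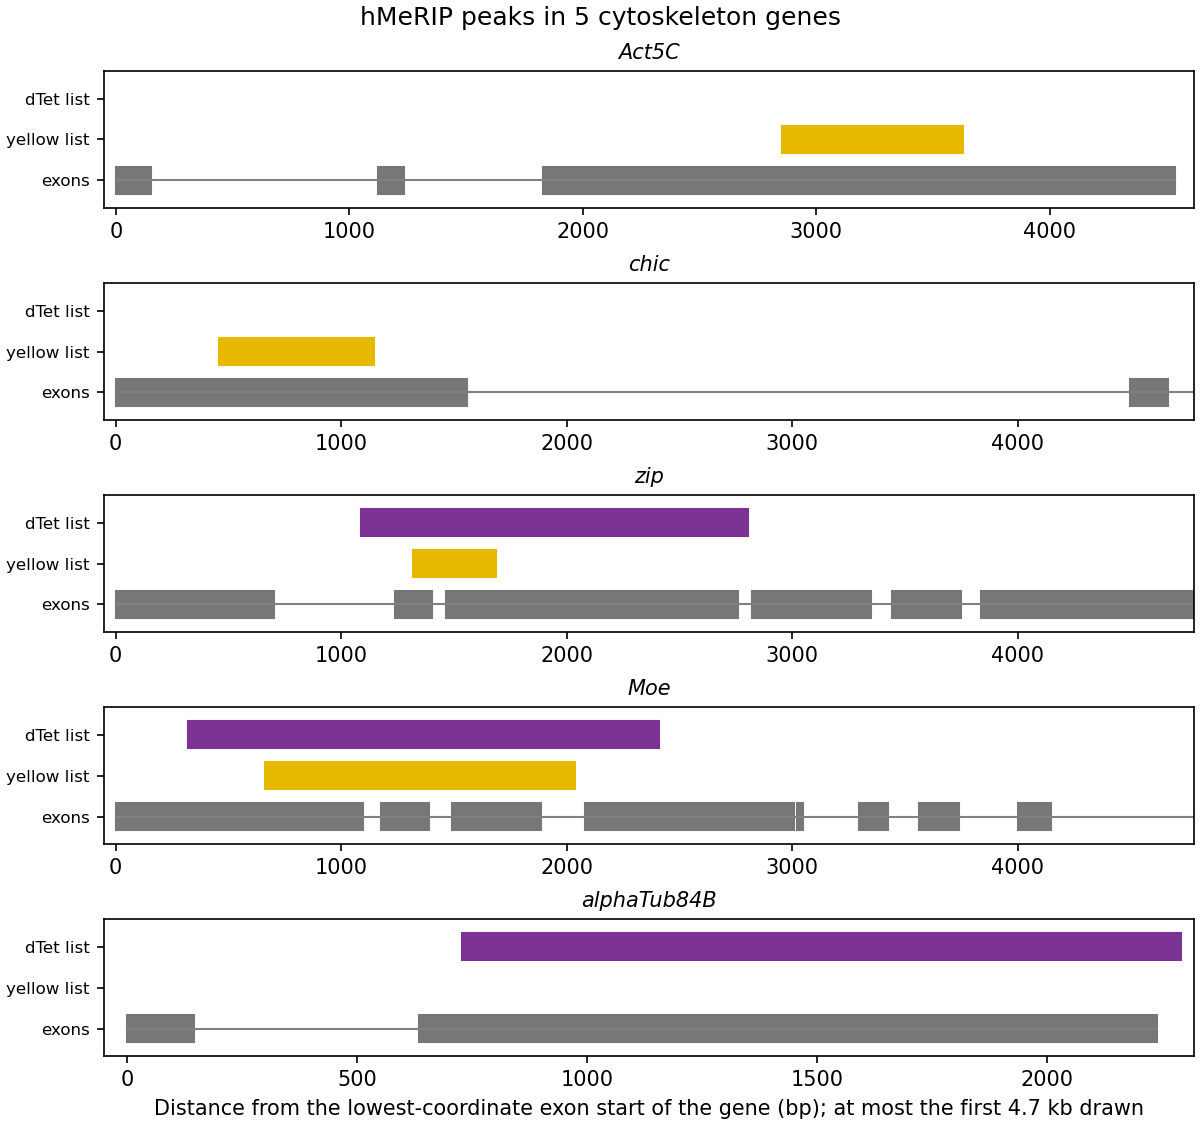
Exon clusters (grey) of 5 cytoskeleton genes with the hMeRIP peaks of the yellow list (gold) and of the dTet list (purple), by distance in bp from the lowest-coordinate exon start, up to 4.7 kb. Act5C and chic have a gold peak alone, alphaTub84B a purple one alone, and in zip and Moe the gold peak lies inside the purple one.

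The wider pathway was described with lists of cytoskeleton genes, in which 0 genes passed (limma, adjusted over all genes tested). In the Arp2/3 complex and other nucleators, which start actin filaments, 18 of 19 genes were tested, 12 higher and 6 lower, with a median log2 change of 0.09. Arpc2, an Arp2/3 subunit, had 6.32 and 7.84 signal in the Ctrl pair against 9.00 and 9.51 in the KD pair. Arpc3B, another subunit, had 4.90 and 3.37 against 2.55 and 2.36, and HSPC300, part of the SCAR complex, had 3.72 and 1.85 against 0.884 and 2.38. Arpc2 and Arpc3B were therefore on opposite sides.

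Among 13 tested turnover and capping genes, chic and tsr included, 6 were higher and 7 lower, with a median of -0.03. The cyclase-associated protein gene capt had 21.8 and 21.6 signal in the Ctrl pair against 22.7 and 28.3 in the KD pair. The severing protein gene Gel had 21.5 and 23.0 against 18.6 and 19.3, and ena, which protects growing filament ends, had 30.3 and 28.7 against 35.2 and 32.0. Crosslinkers and membrane links had 14 genes tested, 12 higher and 2 lower, with a median of 0.16. They include cher, the highest of the list at 0.41, and Moe. Over all 6050 genes tested 2738 were higher and 3312 lower, and the split of this list was not tested. The bundling protein gene Fim had 6.76 and 9.34 against 9.91 and 11.7, the spectrin gene kst had 8.15 and 9.09 against 10.9 and 10.3, and cora had 8.45 and 8.22 against 10.1 and 9.84.

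The actin family had 2 genes tested, both in the group, with a median of 0.12. The tubulins had 5 tested, alphaTub84B and betaTub56D included, 4 higher and 1 lower, with a median of 0.03. Microtubule-associated and tubulin-folding genes divided 10 to 8 (median 0.04) and motor genes 9 to 8 (median 0.02). The dynactin subunit gene Dmn (now DCTN2-p50) had 6.20 and 5.49 signal in the Ctrl pair against 4.49 and 4.48 in the KD pair, and Arp1, another dynactin subunit gene, had 6.03 and 7.31 against 4.35 and 6.94. The dynein light chain gene ctp had 9.19 and 11.7 against 11.9 and 12.7. The microtubule-associated gene Map205 had 9.11 and 16.3 against 15.9 and 15.1, mei-38 had 2.54 and 2.92 against 2.93 and 4.65, and the microtubule polymerase gene msps had 3.20 and 5.90 against 5.61 and 5.85.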

How the data were processed

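Reads were aligned with BWA to the dm3 build and peaks were called with MACS 1.4, per the submitters' processing notes. The peak threshold, use of the input, annotation, read counter and duplicate handling are not given in the sources used here. The labels give the pull-down library protocol for all samples, the polyA RNA-seq ones included. Per exon, the deposited RNA-seq files hold a signal. From the values, it is the mean over 40-bp bins of the reads in a bin times 1 factor per library, since 100% of the exons checked held whole reads (tolerance 0.05 read). Absolute depth is unknown, and no count test was run because the values are coverage. The deposited peak lists hold starts and ends, with no other measure. Of 11 samples 6 were used; the other 5, which are 2 hMeRIP samples of unedited cells and 3 inputs, were not analysed here.

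Overlapping exons of a gene were merged to clusters, each represented by its longest exon, and a gene was given the bin-weighted mean of its clusters. Exon positions follow the files to within 1 bp, and peak starts count from 1. The KD and Ctrl pairs were tested two-sided on log2(signal + 1) by limma 3.58.1 (R 4.3.3; lmFit and trended eBayes) in 6050 genes and 23023 clusters with a mean signal of 1 or more, with Benjamini-Hochberg adjustment over each table. Log2 changes understate those of low genes. Genes with a control mean of at least 1 were called detected, and a peak touched an exon by sharing 1 bp. The method was tested on simulated data.

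The members, the 12 lists and the rule for named genes were chosen with earlier results of these data known. The result of 1 list is not reported here. The rule took the 10 genes, dTet, paralogs of the members, overlapping genes, the 3 genes of each list with the smallest p outside the group, the 3 genes nearest to Act5C and the nearest to each other member. Of 163 listed symbols 162 were found, 5 of them through a synonym in a RefSeq name table. Alternatives changed the pseudocount, the filter, the trend, the scaling, the exons used, the peak rules, the replicate block and the libraries. Same-numbered libraries did not deviate together (r = 0.01 over 6050 genes).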

Additional observations from a re-analysis of the deposited data

How the results depend on the processing

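No gene, no exon cluster and none of the 10 genes passed in any of the 13 alternatives for genes and the 8 for clusters. The counts at an unadjusted p under 0.05 ran from 57 of 1715 genes at a mean signal of 5 or more to 426 of 10945 without a filter; among the same 6050 genes the count moved most without control 2, to 417 from 245. For clusters they ran from 187 of 5840 at a mean signal of 5 or more to 2246 of 23023 without control 2. With the replicate number as a block, 0 genes passed, 245 had an unadjusted p under 0.05, the dTet change was -0.34 and the median of the 10 genes was 0.02. The changes of Act5C, zip, cher and sqh kept their sign under all 13 alternatives, at 0.11 to 0.24, 0.18 to 0.51, 0.19 to 0.62 and -0.55 to -0.12. In these genes the groups do not overlap, so leaving out 1 library could not change the sign. The filter, the trend and the block leave a change as it is, so the kept sign is no sign of robustness there. With the exon cluster that holds the most signal over the 4 libraries, an alternative chosen after seeing the data, Moe turned to -0.10. With 1 library left out, the changes ran from -0.18 to 0.31 for Act42A, -0.12 to 0.17 for Moe, -0.13 to 0.15 for betaTub56D, -0.15 to 0.10 for chic, -0.18 to 0.11 for tsr and -0.15 to 0.065 for alphaTub84B. The median of the 10 genes then ran from -0.14 without knockdown 2 to 0.15 without knockdown 1, and dTet from -0.52 to -0.15; the cause was not tested. Peak counts were 3 in place of 4 genes in the yellow list with peaks of 500 bp or wider only, where zip is lost, and the other peak rules gave the same counts. With 2 libraries a group and uneven coverage in control 1, small changes of these genes could not be told from library differences.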

Other observations

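The gene nearest in log2 level over the 4 RNA-seq libraries was found for each cytoskeleton gene. The 3 genes nearest to Act5C were the ribosomal protein genes RpL4, RpL35 and RpL13A, at Euclidean distances of 0.18, 0.20 and 0.20. RpL4 had 94.9 and 83.8 signal in the Ctrl pair against 98.2 and 95.8 in the KD pair. Ribosomal protein genes were also nearest to Act42A (RpS23), chic (RpS14a), alphaTub84B (RpL27A) and betaTub56D (RpL37a). The disulfide isomerase gene ERp60 was nearest to tsr, at 0.05. Jwa was nearest to Moe, at 0.07, and CG32699 to zip, at 0.12. The phosphatase subunit gene mts was nearest to sqh, and Cct5, a subunit of the chaperonin that folds actin and tubulin, was nearest to cher. Cct5 had 5.60 and 8.53 signal in the Ctrl pair against 8.08 and 9.83 in the KD pair. With 4 libraries this likeness is mostly one of level.

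Peaks were also read in the detected genes of several of the wider lists, and genes are named here because they had one, after the values were seen. None of the 18 nucleation genes had an exonic peak in either list, where 5.59% and 7.74% of all detected genes had one in the yellow and the dTet list, so a count of 0 is near the background. The kinesin heavy chain gene Khc, the dynein light chain gene ctp, the microtubule minus-end gene Patronin and the depolymerising kinesin gene Klp10A each had one in both. So did ena, kst and cora. Fim had one in the yellow list alone, and capt, Tm1, betaTub60D and the glial marker moody in the dTet list alone. Of the 9 detected hemocyte markers, srp, vkg and Cg25C had one in both lists. Over all detected genes 4.65% had one in both.

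Over the 10 genes, the knockdown change went with exonic length (Spearman rho = 0.76 over 10 genes), and over all 6050 genes tested rho was 0.21. Without control 1, whose coverage was less even, these were 0.71 and 0.05, and without control 2 they were 0.67 and 0.27. With the exon cluster that holds the most signal as the gene value, rho was 0.49 over the 10 genes and 0.13 over 6583 genes. Genes are not independent and share the 4 libraries, so these are descriptions. The part of coverage in the relation was not tested.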
